A study of Mus musculus with 21 samples.

Results

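The mature microRNAs numbered miR-7208 to miR-7243 were described over 7 kinds of cultured mouse cells. They were taken by name: every mature entry of the small RNA table whose miRNA number lay in that range was a member, with any arm. This gave 56 of the 1556 mature entries, from 32 hairpin numbers, of which 24 had both arms listed. The rule reads the name and no measured value, but the range itself was chosen by the germ cell levels already known from these libraries. Differences between germ cells and the other types are therefore given as a description, and tests are given only between the other types.

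Small RNA was sequenced from 21 libraries, 3 from each cell type, all from untreated C57BL/6J cells labelled as primary. The types were germ cells, peritubular myoid cells (PTM), Sertoli cells, Leydig cells, and smooth muscle cells of the vessel wall (VSMC), intestine (ISMC) and trachea (TSMC). PTM cells surround the seminiferous tubule, Sertoli cells nurse the germ cells inside it and Leydig cells make testosterone between the tubules. All were grown in DMEM/F12 with serum. The testicular cells were isolated by the submitters and the smooth muscle cells were bought from a supplier, so tissue and source cannot be told apart. The age of the animals, the germ cell stage and whether replicates came from separate animals are not given, so p-values measure the spread between these libraries, which may be technical.

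A microRNA gene is transcribed into a hairpin, which Drosha and Dicer cut into a short duplex. Either strand of it or both, the 5p and 3p arms, enter an Argonaute protein, and bases 2 to 8 of the arm, the seed, pair with target mRNAs. Adult germ cells carry, beside microRNAs, the piRNAs, which are bound by PIWI proteins and take up much of the small RNA of spermatocytes and spermatids. High miRNA numbers are late entries of the miRBase registry, and many of these are known only from small RNA sequencing.

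A mature sequence was held by RefSeq (GRCm38.p6) for 46 of the 56 members, and the 46 seeds were all different. The sequences of abundant germ cell members follow, with the seed in capitals. They show that members of neighbouring hairpins, such as miR-7217 and miR-7218 or miR-7221 and miR-7222, are not copies of each other.
miR-7223-5p: uAGCUUUGcugaggugucgg
miR-7232-3p: uGGUUGAAuucgacuuuggggc
miR-7242-3p: uGGCAGCUcggcucuacucugg
miR-7218-5p: uGCAGGGUuuaguguagaggg
miR-7217-3p: uGAGAACCcacaagcaagaaga
miR-7221-5p: cGUCUCUUggucacagguggg
miR-7222-3p: uCCAGGACagugggcaggagcag
miR-7210-5p: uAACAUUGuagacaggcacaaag
miR-7210-3p: uUAUAUGUaaguaacaauguggcu
miR-7229-3p: uACACAGAccagugacuuucugca

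The next sequences belong to members without a germ tag. By mean CPM, miR-7240-5p was highest in Sertoli and Leydig cells and miR-7231-5p in TSMC.
miR-7240-5p: uUGGAGAGgaccgccgucgga
miR-7231-5p: uUGGGGAAcacuggggcauacc

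Among the 46 members with a sequence, 6 shared a seed with a microRNA outside the set. In the germ libraries most of the partners did not follow them. Both miR-7238-3p and its partner miR-6899-3p were at 0 there, and miR-7239-3p was at 0 where its partner miR-760-3p averaged 83.7 CPM. miR-7223-5p shares its seed with miR-3101-3p, and in the germ libraries miR-7223-5p averaged 1216 CPM while miR-3101-3p was at 0. miR-7242-3p (611 CPM) shares one with miR-5623-5p, and miR-7221-3p (28.7 CPM) with miR-679-5p, and both partners were at 0 there. The seed of miR-7229-5p is that of miR-411-5p, a microRNA of the imprinted Dlk1-Dio3 region, which averaged 75.1 CPM in germ cells against 4.96 CPM for the member.
miR-7223-5p: uAGCUUUGcugaggugucgg
miR-3101-3p: uAGCUUUGguggauggucuuu
miR-7242-3p: uGGCAGCUcggcucuacucugg
miR-5623-5p: uGGCAGCUggcaagucagaaugca

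The libraries held 18.1 to 26.1 M tags of all small RNA classes. Mature microRNA made up 0.525 to 0.958 M tags in the germ libraries and 4.04 to 14.6 M in the other 18. piRNA-annotated tags took 15.9 to 28.5% of the germ libraries and 1.15 to 2.92% of the others. Germ cell markers, the 9 arms of miR-34b, miR-34c and the miR-449 family, summed to 106820 to 262670 CPM (counts per 1000000 mature tags, with library sizes scaled by TMM) in germ libraries and to 296 to 1633 CPM in the other 18. miR-202, a gonadal somatic microRNA, reached 363 to 1631 CPM in PTM, Sertoli and Leydig libraries, 60.1 to 246 CPM in germ libraries and 0.17 to 1.78 CPM in smooth muscle libraries. A list of 23 testicular X-linked entries summed to 21212 to 29960 CPM in germ, 40265 to 92019 CPM in PTM and 43812 to 82558 CPM in Sertoli libraries. In Leydig libraries it summed to 255 to 741 CPM and in smooth muscle libraries to 6.76 to 104 CPM. The arms of miR-143 and miR-145, markers of contractile smooth muscle, summed to 19825 to 34053 CPM in PTM, 30285 to 67969 CPM in Sertoli, 5824 to 9294 CPM in Leydig and 4470 to 20432 CPM in smooth muscle libraries. In germ libraries the arms of miR-143 and miR-145 summed to 317 to 3643 CPM. By this list the Sertoli libraries were not set apart from contractile cells.

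The members were abundant in germ cells and close to absent elsewhere. Summed over all 56, the germ libraries held 4927, 11340 and 5542 member tags, and each of the other 18 libraries held 25 to 197. This was 0.948 ± 0.232% of the mature tags of germ libraries (SD, n = 3). It was 0.00180 ± 0.00033% in PTM, 0.00156 ± 0.00040% in Sertoli, 0.00150 ± 0.00011% in Leydig, 0.000297 ± 0.000091% in VSMC, 0.000537 ± 0.000219% in ISMC and 0.000574 ± 0.000222% in TSMC libraries (SD, n = 3 each). Mature microRNA itself is a small share of the germ libraries, so the same sums were also taken per 1000000 tags of all classes, and they came to 190 to 450 in germ libraries against 1.18 to 8.71 in the others. The groups were far apart on both scales. In bulk RNA, a level per cell and a share of cells that carry the microRNA cannot be told apart.

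The pattern was not seen in every member. On CPM, all 3 germ libraries lay above all 18 others for 27 of the 56 members, and this held for 10.9% of all 1556 mature entries. Of 503 other entries numbered 6000 or more, 10 did so (1.99%). Per tags of all classes, miR-7229-3p, miR-7222-5p and miR-7233-3p among the 27 overlapped with a library of another type. Each had 1 tag in its lowest germ library. The remaining 29 members were sparse: 25 of them had under 50 tags over the 21 libraries, and 23 members had no germ tag at all. On CPM a germ cell pattern was thus seen in 27 members, but several of these were sparse too. Of the 27, 14 had at least 10 tags in at least 3 libraries, while miR-7216-5p had 5 tags in all and miR-7222-5p 6. Most of the other 29 had too few tags to show or to lack it. Among them, miR-7216-3p, miR-7217-5p and miR-7233-5p had 1 to 3 tags each, all in germ libraries. Of the 23 without a germ tag, 21 were on CPM at or below the level that 3 germ tags would give. The 29 also include members described below that were higher in the somatic cells of the testis.

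**Figure D1:**
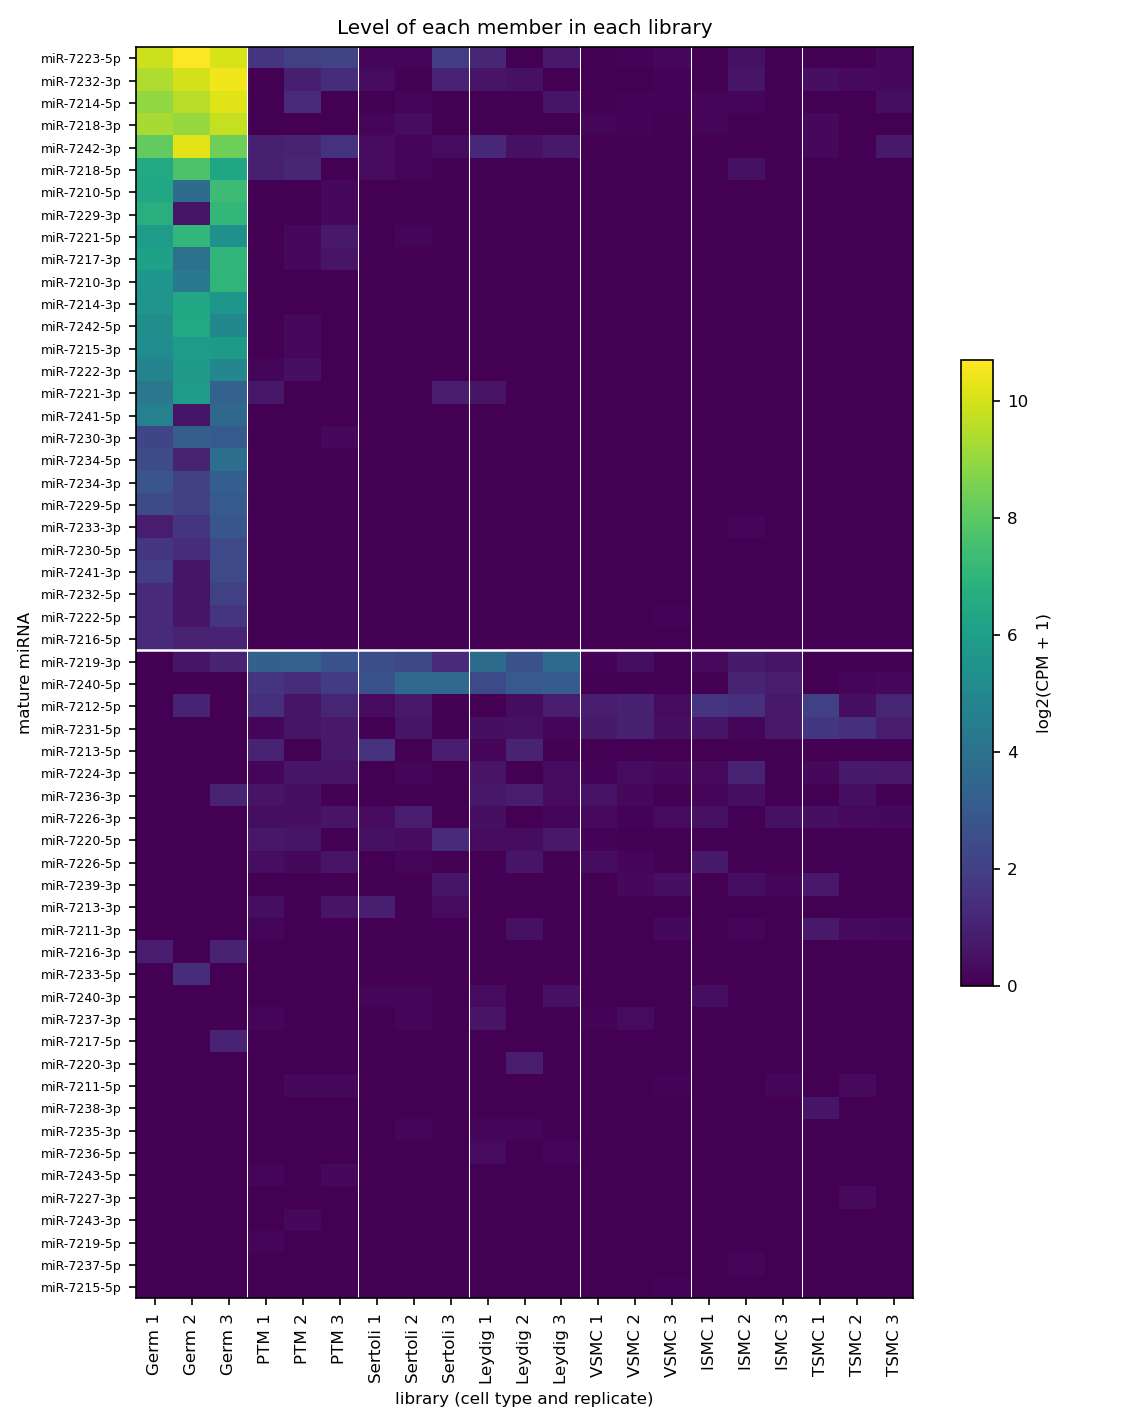
Level of each of the 56 members (rows) in each of the 21 libraries (columns, 3 per cell type), as log2(CPM + 1) by colour. The 27 members above the white line are those with all 3 germ libraries above the other 18 on CPM, and below it miR-7219-3p and miR-7240-5p are brightest in PTM, Sertoli and Leydig libraries.

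In germ cells 5 members held 85.2% of the 21809 member tags: miR-7223-5p (24.9%), miR-7232-3p (19.6%), miR-7214-5p (14.7%), miR-7242-3p (13.9%) and miR-7218-3p (12.2%). miR-7223-5p had 930, 1661 and 1058 CPM in the germ libraries. It had 2.14, 3.13 and 3.59 CPM in PTM libraries, 0.125, 0.131 and 2.80 CPM in Sertoli libraries and 1.21, 0 and 0.637 CPM in Leydig libraries. In the 9 smooth muscle libraries it ranged from 0 to 0.406 CPM. The lowest germ library was thus far above the highest PTM library, and PTM libraries came next. Pooled over libraries, miR-7223-5p was 969 times higher in germ cells than in PTM, Sertoli and Leydig cells together (95% counting interval 779 to 1220). Per tags of all classes the same ratio was 162 (130.3 to 204), so its size depends on the scaling.

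miR-7232-3p had 684, 1038 and 1430.2 CPM in germ libraries and at most 1.63 CPM, in PTM replicate 3, elsewhere. Its pooled germ level was 2234 times that of the 3 somatic testis types (interval 1544 to 3367), and 374 times (258 to 563) per tags of all classes. miR-7214-5p had 498, 751 and 1146 CPM in germ libraries, and no other library passed 1.39 CPM. Neither member overlapped between germ cells and the rest.

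miR-7218-3p had 630, 522 and 856 CPM in germ libraries and no tag in any PTM or Leydig library. It had 3 tags in the 9 somatic testis libraries together, which puts the pooled ratio at 12997 with a wide counting interval of 4443 to 63065, and at 2173 (743 to 10546) per tags of all classes. miR-7242-3p had 281, 1232 and 319 CPM in germ libraries, 0.916, 1.04 and 1.96 CPM in PTM libraries, and 0 in all VSMC and ISMC libraries. Germ replicate 2 stood out for this member.

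The next 3 by level were miR-7218-5p (89.3, 209 and 78.5 CPM in germ libraries), miR-7210-5p (81.8, 12.6 and 162 CPM) and miR-7229-3p (107, 0.526 and 133 CPM). miR-7210-5p and miR-7229-3p had a single tag each in the other 18 libraries, both in PTM replicate 3. The other arm of the first hairpin, miR-7210-3p, had 48.8, 18.9 and 128 CPM in germ libraries and no tag in the other 18. Counting 3 tags over each group as the floor, it was at least 184 times higher in germ cells than in the somatic testis types and at least 178 times higher than in smooth muscle cells per tags of all classes. On the TMM-scaled CPM these bounds were 1099 and 1635. Of the 27 members above all other libraries in germ cells on CPM, 10 had no tag outside them and 8 had 1 to 3.

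**Figure D2:**
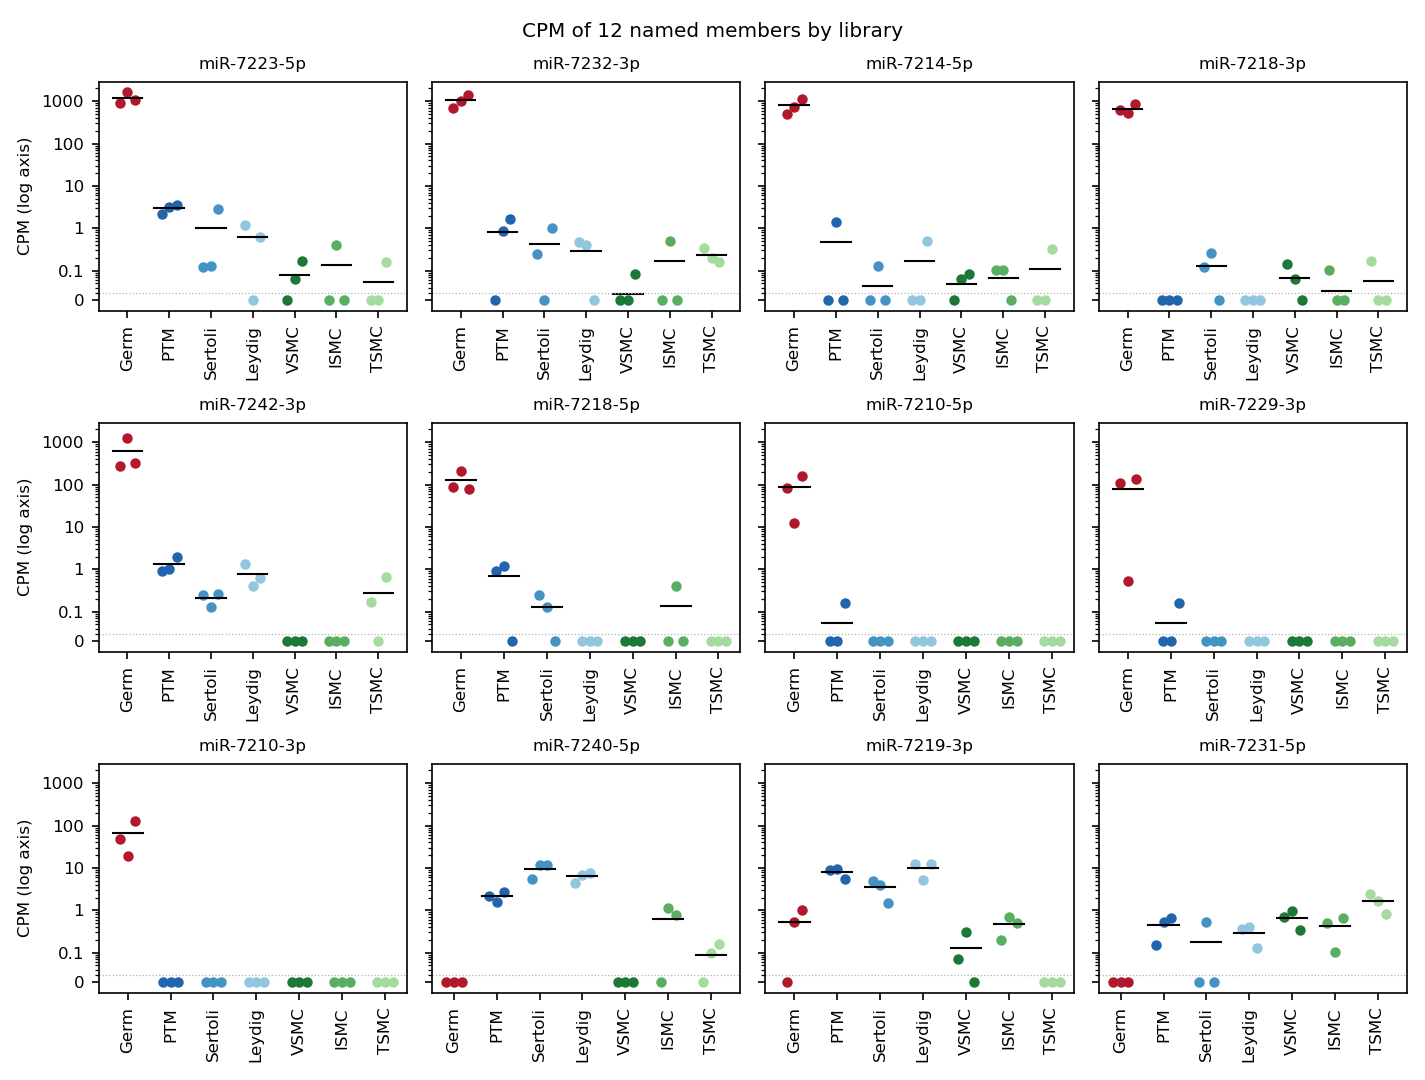
CPM on a log axis of the 12 members described one by one, by cell type, with 1 point per library (3 per type), a bar at the mean, and libraries with no tag drawn at 0 below the dotted line. The germ points of the first 9 members lie above every other point, and miR-7240-5p and miR-7219-3p are highest in PTM, Sertoli and Leydig libraries.

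A model over all libraries (edgeR quasi-likelihood, 846 entries with at least 10 tags in at least 3 libraries) held 18 members. Of these, 13 passed that minimum only through the germ libraries, so that they had to differ, and their counts are given as a description. In germ cells against PTM, Sertoli and Leydig cells, 14 of 18 were called higher, where 20.6% of all tested entries were, and 2 were called lower, where 40.0% were. Fitted log2 fold changes of the 14 ran from 9.94 for miR-7242-3p to 14.19 for miR-7218-3p, and from 7.46 to 11.45 with tags of all classes as library size. miR-7212-5p and miR-7231-5p passed neither way, although miR-7231-5p was called lower in germ cells with tags of all classes as library size. Among the 7 types together 17 of 18 were called, against 80.7% of all tested entries. Over all 846 entries the median fitted log2 fold change was -1.67 with TMM and -0.63 with median-ratio (RLE) scaling in edgeR. It was -0.50 with library totals and -4.03 with tags of all classes as library size.

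The 5p and 3p arms were unequally represented in most hairpins, and the preferred arm differed between them. In miR-7234, with 21 tags of the 5p and 22 of the 3p arm, the 5p share was 48.8% (33.3 to 64.5%). Counts are of tags assigned to each annotated arm, and whether Drosha and Dicer cut these tags from a hairpin was not tested. Pooled over the germ libraries, the 3p arm held 99.9% of the miR-7232 tags, 92.4% of the miR-7242 tags (exact binomial interval 91.5 to 93.3%) and 81.8% of the miR-7218 tags (80.4 to 83.1%). The 5p arm held 92.4% of the miR-7214 tags (91.4 to 93.2%) and 72.2% of the miR-7221 tags (68.2 to 76.0%). In miR-7210 the balance turned between libraries, with a 5p share of 40.0 to 62.6%. In miR-7218 the 3p share ranged from 71.4 to 91.6% over the 3 libraries, more than its counting interval. For miR-7229 the 3p share was at most 95.9%, and 14.3% in replicate 2, which had only 1 tag of the 3p arm beside 6 of the 5p arm. These intervals cover counting error only.

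**Figure D3:**
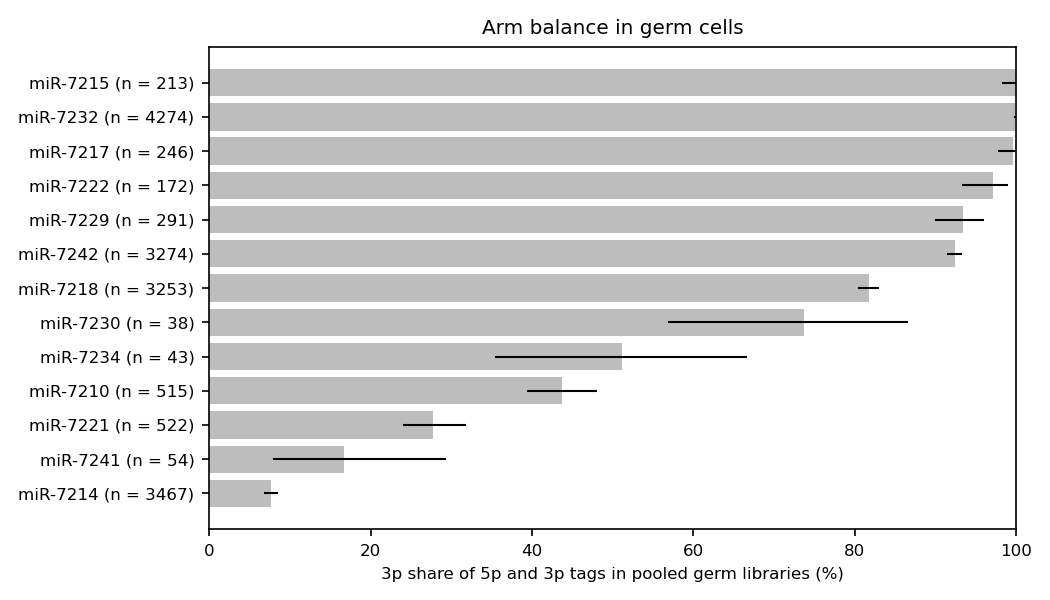
Share of 3p tags among the 5p and 3p tags of each hairpin, pooled over the 3 germ libraries, with exact 95% binomial intervals and the tags in brackets. miR-7215 and miR-7232 lie at the 3p end and miR-7214 at the 5p end.

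The 3 germ libraries did not agree on which members were high. Levels per 1000000 tags of all classes in replicate 2 were set against replicates 1 and 3 pooled, for the 17 members with at least 30 germ tags. In replicate 2, 12 were higher and 5 were lower, and each counting interval lay on its own side of 1. On the TMM-scaled CPM 9 were higher and 8 lower, because miR-7232-3p (0.982 times), miR-7214-5p (0.914 times) and miR-7218-3p (0.703 times) changed sides. Per tags of all classes, miR-7242-3p was 7.09 times higher (interval 6.50 to 7.73), with 374, 2343 and 309 tags in the 3 libraries, and on CPM it was 4.11 times higher. miR-7223-5p was 2.88 times higher (2.73 to 3.04), and 1.67 times on CPM. On the low side, per tags of all classes, stood miR-7210-3p (0.393), miR-7217-3p (0.266), miR-7210-5p (0.186), miR-7241-5p (0.047) and miR-7229-3p (0.0076). For miR-7229-3p the 3 libraries had 142, 1 and 129 tags, so replicate 2 lacked it almost wholly while its sister arm miR-7229-5p had 6, 6 and 7 tags.

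Some neighbouring hairpins moved together in this and others parted. miR-7221-5p (4.48), miR-7221-3p (7.01) and miR-7222-3p (3.32), from neighbouring genes, were all higher in replicate 2 per tags of all classes, and also on CPM. The genes of miR-7241 and miR-7242 are 1718 bases apart, and in replicate 2 miR-7241-5p had 1 tag (33 and 11 in replicates 1 and 3) where miR-7242-3p was at its highest. miR-7217-3p had 92, 28 and 125 tags and miR-7218-5p, from the same noncoding transcript, had 119, 398 and 76. The main arm of that hairpin, miR-7218-3p, had 839, 993 and 828 tags, a ratio of 1.23 per tags of all classes and 0.703 on CPM. Replicate 2 also held the lowest piRNA share, 15.9% against 28.4 and 28.5%, and the highest mature share, 3.80% against 2.02 and 2.95%. The part of these shares, or of the germ cell stages in each library, in the opposite moves was not tested.

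**Figure D4:**
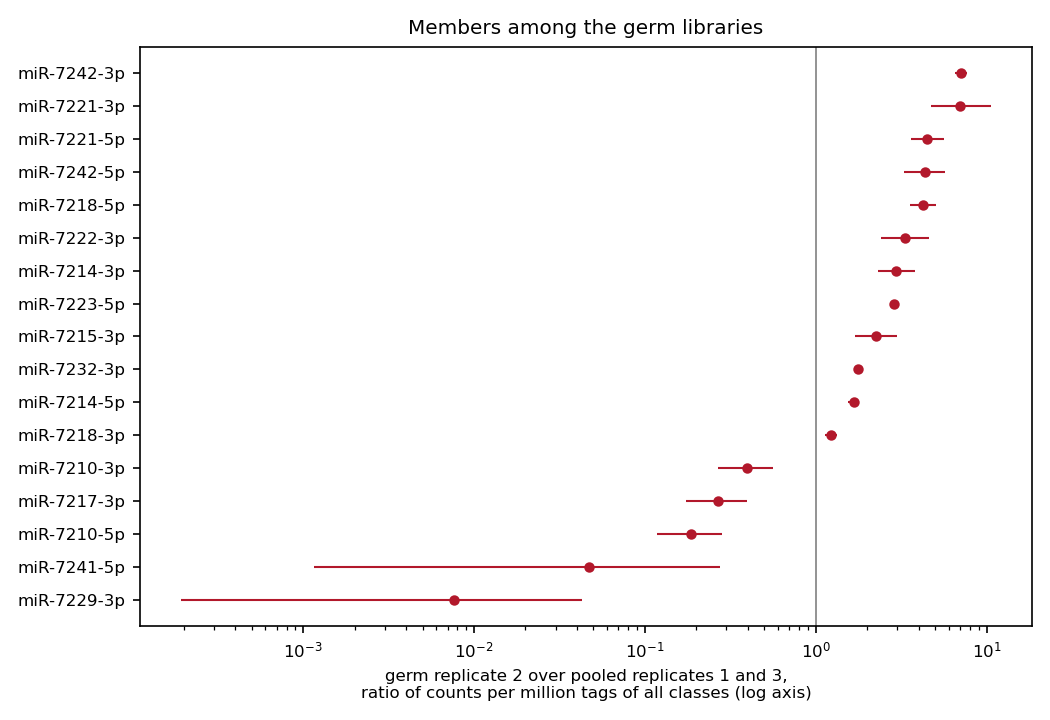
Level in germ replicate 2 over the pooled level in germ replicates 1 and 3, per 1000000 tags of all classes, on a log axis, with 95% counting intervals, for the 17 members with at least 30 germ tags. The 12 members right of 1 (9 on TMM-scaled CPM) reach 7.09 for miR-7242-3p, and the 5 left of 1 reach 0.0076 for miR-7229-3p.

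Where a hairpin lies in the genome went along with its germ level. All 32 genes were found in the GENCODE annotation of GRCm38. The germ share is the mean germ CPM as a share of the summed means of the 7 types, and 16 genes had a germ share of 99.1 to 100%, while the other 16 had 0 to 19.9%. No gene lay between. All 13 genes on the same strand as a protein-coding gene, 10 in introns and 3 in exons, belonged to the low set. They had 5 tags in germ libraries and 967 in the other libraries, 483 of these from Mir7219. Germ libraries held 0.525 to 0.958 M mature tags each and the other 18 held 4.04 to 14.6 M. Of the 13, 10 had no germ tag, and Mir7227, Mir7235, Mir7238 and Mir7243 had 2 or 3 tags in all. A germ share of 0 can thus be a level too low to be seen at this depth. The 6 genes that overlapped noncoding transcripts only (5 on the same strand, Mir7229 opposite the transcript Gm43353) were all in the high set, with 7307 germ tags against 52. Of 9 genes outside other annotated genes 8 were high, the exception being Mir7239. The 4 genes opposite a protein-coding gene were split: Mir7223, in an intron of Prkca, and Mir7215, in an intron of Stox1, were high, while Mir7211 (Tmcc3) and Mir7240 (Mast3) were low. Mir7211 also lies in an intron of the noncoding antisense transcript Tmcc3os, on the same strand, so a place in a noncoding transcript did not always go with a high germ share. These are descriptions over genes, some of which share a transcript.

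**Figure D5:**
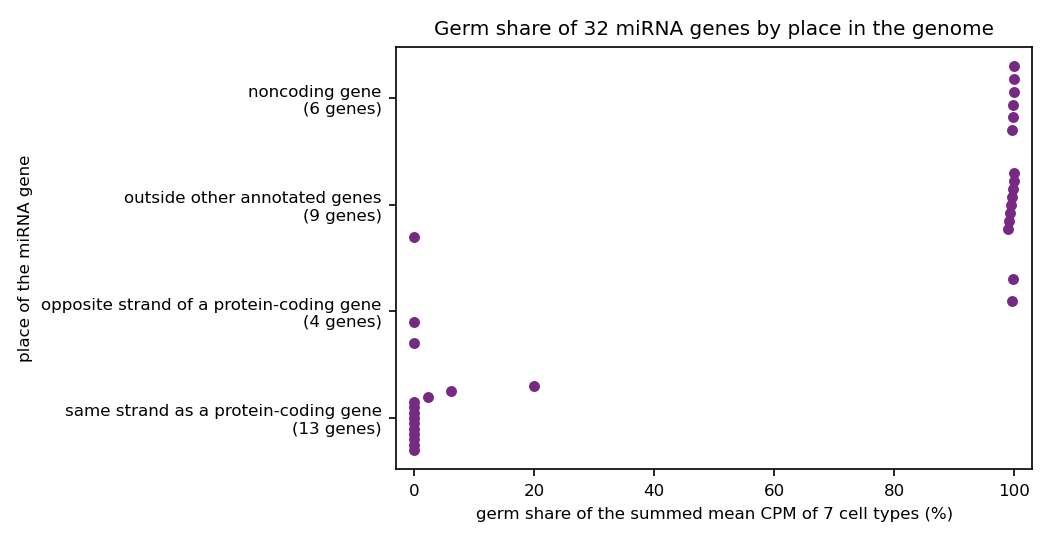
Germ share of each of the 32 miRNA genes (1 point each), as the mean germ CPM over the summed mean CPM of the 7 cell types in percent, by the place of the gene. The 13 genes on the strand of a protein-coding gene lie at 0 to 19.9%, and the 6 in noncoding genes only at 99.7 to 100%.

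Several high genes lay close together. On chromosome 17, Mir7214 (chr17:27317035-27317095, minus strand, intron of the lincRNA Gm49793), Mir7216 (chr17:27328385-27328460, plus strand, intron of Gm10505), Mir7217 (chr17:27355738-27355799) and Mir7218 (chr17:27358097-27358155, both plus strand, exon of the lincRNA Gm49794) fell within a stretch with 41001 bases between the outer genes. Their levels differed widely, with 3467 germ tags for Mir7214, 7 for Mir7216, 246 for Mir7217 and 3253 for Mir7218. Mir7221 and Mir7222 lie 2324 bases apart on chromosome 2, near Chst1, with 522 and 172 germ tags. Mir7229 and Mir7230 lie 13044 bases apart on chromosome 5, with 291 and 38. Mir7223, the most abundant, is alone (chr11:107996848-107996916, plus strand), as is Mir7232 (chr6:81895590-81895663, minus strand), which begins 251 bases from 1700097M23Rik.

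At the median, the hairpins of the high set folded less tightly than those of the low set, but the ranges overlapped. The predicted minimum free energy per 100 bases (RNAfold, kcal/mol) had a median of -31.3 over 15 high hairpins (-38.4 to -16.9) and -40.5 over 13 low hairpins (-78.3 to -29.2). It was -40.8 over 977 other mouse hairpins in RefSeq, which were longer, with a median of 79 bases against 61 and 60. Mir7223 of the high set and Mir7219, Mir7220 and Mir7240 of the low set had no hairpin sequence and were not folded. Mir7210, with the weakest fold (-16.9), and Mir7243, with the tightest (-78.3), show the range, with the mature arms in capitals.
Mir7210: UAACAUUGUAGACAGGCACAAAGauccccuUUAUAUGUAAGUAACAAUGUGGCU
Mir7243: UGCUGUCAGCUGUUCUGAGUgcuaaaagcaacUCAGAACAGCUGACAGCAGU

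Mir7210 gave 515 germ tags and 1 tag elsewhere, and Mir7243, in an intron of Ephb1, gave 3 tags in all. The 25 members with a sequence that were above all other libraries in germ cells on CPM had a median length of 23 bases and began with U in 68.0% of cases. The 21 others had 22 bases and 57.1%, and the 1280 other entries of the table with a sequence 22 bases and 41.6%. Over 23 bases long were 26.1% of the members and 7.27% of the other entries.

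miR-7219-3p and miR-7240-5p ran the other way and were highest in the somatic cells of the testis. miR-7219-3p had 0, 0.526 and 1.03 CPM in germ libraries, 8.85, 9.21 and 5.55 CPM in PTM libraries, 5.01, 3.93 and 1.53 CPM in Sertoli libraries and 12.7, 5.22 and 12.5 CPM in Leydig libraries. In the 9 smooth muscle libraries it ranged from 0 to 0.711 CPM. The somatic testis libraries did not overlap with either side. Its fitted log2 fold change was 5.93 ± 0.53 (SE) in PTM, Sertoli and Leydig against smooth muscle cells (edgeR adjusted p = 7.1e-09), and its pooled germ level, from 2 tags, was 0.063 times that of the somatic testis types (counting interval 0.0076 to 0.230), and 0.0106 times (0.0013 to 0.0385) per tags of all classes. Against smooth muscle cells the pooled germ level was 2.29 times on CPM and 0.250 times per tags of all classes, so the place of germ cells in the order depends on the scaling. Mean CPM of miR-7219-3p fell in the order Leydig, PTM, Sertoli, germ, ISMC, VSMC, TSMC. Among the first 3 types, neighbours did not differ from each other beyond the spread. PTM against Leydig gave -0.36 ± 0.61 log2 units (SE, edgeR adjusted p = 0.73) and PTM against Sertoli 1.14 ± 0.63 (edgeR adjusted p = 0.37). Its gene overlaps exons of Fam210a on the same strand and of Ldlrad4 on the other, so reads of those transcripts cannot be told from it by position alone.

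miR-7240-5p had no tag in the germ libraries. It had 2.14, 1.56 and 2.78 CPM in PTM libraries, 5.51, 11.5 and 11.4 CPM in Sertoli libraries and 4.34, 6.96 and 7.64 CPM in Leydig libraries. VSMC libraries had none, ISMC libraries had 0, 1.12 and 0.770 CPM and TSMC libraries had 0, 0.099 and 0.162 CPM. Counting 3 tags as the floor over the germ libraries, it was at least 8.30 times lower in germ cells than in PTM, Sertoli and Leydig cells on CPM, and at least 49.6 times lower per tags of all classes. It was higher in the somatic testis types than in smooth muscle cells by 5.60 ± 0.56 log2 units (SE, edgeR adjusted p = 8.3e-08). Sertoli against Leydig cells gave 0.58 ± 0.66 (edgeR adjusted p = 0.60), and PTM against Sertoli cells missed the threshold with -2.12 ± 0.71 (edgeR adjusted p = 0.064), although its 3 PTM libraries all lay below the 3 Sertoli libraries. Its gene (chr8:70798135-70798192, plus strand) lies in an intron of Mast3, on the opposite strand.

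Between PTM, Sertoli and Leydig cells on one side and the 3 smooth muscle types on the other, 5 of 18 members were called higher, against 32.4% of all tested entries, and 1 lower, against 25.3%. Of the 5, 2 members, miR-7242-3p and miR-7232-3p, had reached the count minimum only through the germ libraries, as had 13 of the 18, so nothing is read from the share. Beside miR-7219-3p and miR-7240-5p, the 5 called higher were miR-7242-3p (3.90 ± 0.72, edgeR adjusted p = 0.00013), miR-7223-5p (3.62 ± 0.77, edgeR adjusted p = 0.00045) and miR-7232-3p (1.87 ± 0.76, edgeR adjusted p = 0.043). The split of 5 higher and 1 lower became 4 and 2 under each of the other 3 scalings, since the call of miR-7232-3p was lost and miR-7212-5p was called lower (edgeR adjusted p = 0.035, 0.019 and 0.021, against 0.090 with TMM).

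miR-7231-5p, the lower one, had no germ tag, 0.153, 0.521 and 0.653 CPM in PTM libraries, 0, 0.524 and 0 CPM in Sertoli libraries and 0.362, 0.402 and 0.127 CPM in Leydig libraries. It had 0.701, 0.947 and 0.339 CPM in VSMC, 0.506, 0.102 and 0.641 CPM in ISMC and 2.37, 1.69 and 0.809 CPM in TSMC libraries. The ranges overlapped except for TSMC, whose libraries were all above the somatic testis ones. Its gene overlaps an exon of Foxj2 on the same strand. Its log2 fold change in the somatic testis types against smooth muscle cells was -1.32 ± 0.56 (SE, edgeR adjusted p = 0.048), and the replicate block ended the call. So did leaving out any of 13 single libraries: PTM replicates 1 and 2, Sertoli 1 and 3, Leydig 1, 2 and 3, VSMC 1 and 2, ISMC 1 and 3, and TSMC 1 and 2 (edgeR adjusted p up to 0.091). Against the 0.714 CPM that 3 tags over the germ libraries would give, its pooled level was 0.830 CPM in smooth muscle cells and 0.309 CPM in the somatic testis types. On the TMM-scaled CPM germ cells were thus at least 1.16 times lower than smooth muscle cells (10.7 times per tags of all classes), and no difference from the somatic testis types was detectable at this depth. Of the 23 members without a germ tag, 21 had pooled levels in the somatic testis types and in smooth muscle cells at or below that floor on CPM, and 13 did so per tags of all classes. miR-7212-5p, in an intron of Retreg1, was present in 17 of the 21 libraries at 0 to 3.04 CPM, and no pair of types passed the test (edgeR).

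In PTM cells against Sertoli and Leydig cells, edgeR called none of the 18 members, against 5.91% of all tested entries. At an unadjusted p under 0.05 there were 7, and DESeq2 called 1, miR-7240-5p, lower in PTM. In PTM against smooth muscle cells 9 of 18 were called higher, against 28.7% of all tested entries, and 0 were lower, against 18.8%. Of the 9, 6 had entered the test only through the germ libraries where they are high, so this share is not read against the background. Fitted without the germ libraries, an alternative chosen after seeing the data, 5 members were tested and 3 were called. With edgeR 10 of 18 had an unadjusted p under 0.05, and DESeq2 called 5.

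Of the 9, miR-7219-3p (6.19 ± 0.60 log2 units, SE, edgeR adjusted p = 4.6e-08), miR-7242-3p (4.99 ± 0.77, edgeR adjusted p = 2.9e-05), miR-7223-5p (4.94 ± 0.85, edgeR adjusted p = 7.1e-05) and miR-7240-5p (4.38 ± 0.68, edgeR adjusted p = 3.0e-05) held in every alternative that tested them. Of these 4, miR-7242-3p entered the test only through the germ libraries, so the fit without germ libraries did not test it. The other 5 rested on few tags. miR-7222-3p had 1, 2 and 0 tags in the PTM libraries, miR-7217-3p 0, 1 and 3, miR-7221-5p 0, 1 and 4, and none had a tag in the 9 smooth muscle libraries. miR-7218-5p had 6, 7 and 0 tags in PTM libraries and 4 in all in smooth muscle libraries, and miR-7232-3p had 0, 5 and 10 against 11 in all.

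All but miR-7219-3p and miR-7240-5p of these 9 are germ cell members, and their PTM level was a small part of the germ level. The 14 members called higher in germ cells stood in PTM cells at a median of 0.113% of their germ level (0 to 0.565%), in Sertoli cells at 0.0027% and in Leydig and smooth muscle cells at a median of 0. Summed, they came to 4.12, 8.69 and 8.49 CPM in PTM libraries, 0.917 to 4.07 CPM in Sertoli, 0.803 to 3.02 CPM in Leydig and 0 to 1.42 CPM in smooth muscle libraries. The sum of the 9 germ markers did not take the same order. It was 501 to 785 CPM in PTM and 296 to 833 CPM in Sertoli libraries. In Leydig libraries it was 1127 to 1633 CPM, and in smooth muscle libraries 416 to 919 CPM. The markers differed among themselves. The most abundant of them, miR-449a-5p, stood at 0.042% of its germ level in PTM, 0.032% in Sertoli, 0.022% in Leydig and 0.034% in smooth muscle cells (0.044% in TSMC). Within the somatic testis types miR-449c-5p also fell from PTM to Sertoli to Leydig cells, while all arms of miR-34b and miR-34c were highest in Leydig cells. The remaining marker arms had no tag outside germ libraries. The piRNA share was 2.28 to 2.63% in PTM and 1.15 to 2.20% in smooth muscle libraries. The part of germ cell RNA in the PTM levels was not tested.

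The other members were few in tags and are given by their range. miR-7213-5p had 38 tags over 6 libraries, all of PTM, Sertoli or Leydig cells, and its sister arm had 13 over 4. miR-7220-5p had 27 of its 28 tags in the somatic testis libraries. miR-7239-3p had 15 of 17 tags in smooth muscle libraries, miR-7224-3p 31 of 45, and miR-7226-3p had 19 on each side. The hosts of these, Pdgfb for Mir7213, Camk2a for Mir7220, B3galt1 for Mir7224 and Ptprf for Mir7226, are genes with the hairpin in an intron on the same strand. None of these members reached the minimum for the test, and the remaining untested ones had 24 tags or fewer outside germ cells, apart from miR-7236-3p with 34.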

How the data were processed

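The deposited table gives, per the file header, counts of small RNA tags and TPM for each entry and library. The counts were used as the authors deposited them, and the TPM deposited by the authors were not used. Bowtie2 and the mm10 build are named in the submitters' processing notes. Adapter trimming, mismatches allowed and the treatment of tags matching several entries were not stated in the labels or headers, and can affect entries of a few tags most.

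Members are mature entries numbered 7208 to 7243. The members and lists were chosen with earlier results of these data known. CPM are counts over mature tags scaled by TMM. One edgeR 4.0.16 quasi-likelihood fit (robust, R 4.3.3) covered the 846 mature entries with at least 10 counts in at least 3 of the 21 libraries, with a term per cell type, and p-values were Benjamini-Hochberg adjusted over all 846, with 0.05 as threshold. SE is the absolute log2 fold change over the square root of F. The script was tested on simulated data. DESeq2 1.42.0, other scalings, filters and library sets were alternatives. Named members are the 8 with the highest mean CPM over types and the 3 largest changes in each direction of each contrast among those called, and all others are given by ranges and counts. Replicates were compared and none was a duplicate (lowest chi-square per degree of freedom 161). Same-numbered libraries of different types did not deviate together (mean r 0.0017 over 63 pairs). Counting intervals are exact 95% ones, from pooled tags, and floors are 3 counts over a group. Places come from GENCODE on GRCm38, sequences from RefSeq, and folding from RNAfold 2.7.2. An entry of miR-7212-3p typed as hairpin was no member.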

Additional observations from a re-analysis of the deposited data

Results flagged for a closer look

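The table also lists predicted miRNA entries, which are outside the mature entries compared above. All 14 such entries within 50 kb of a member gene had a higher level in the pooled germ libraries than in the pooled other 18 (tags over scaled library size), with 59225 tags in the germ libraries against 621 in the other 18. Over all 230 predicted entries 59 did so (25.7%), and of the 216 farther from a member gene, 45. On chromosome 17, around Mir7214 to Mir7218, the germ tags of the predicted entries were 1960 (854 bases from Mir7214), 6171 (21596 bases) and 914 (23434 bases), and 17392 for one 10144 bases from Mir7217. On chromosome 5, one 5961 bases from Mir7230 had 24254 germ tags, 5119, 15578 and 3557 by library, and one 18044 bases away had 600. Beside Mir7241 on chromosome 9 were 2557 tags (11108 bases away) and 525 (29346 bases away). Near Mir7233 on chromosome 6 there were 2028 (13580 bases away) and 857 (27702 bases away). On chromosome 2, 87 tags belonged to an entry 2815 bases from Mir7222 and 1104 to one 38030 bases from Mir7221. The remaining ones had 464 tags (5757 bases from Mir7210) and 312 tags (5065 bases from Mir7215), the last with 58, 254 and 0 tags by germ library. They were flagged because they carry signal that none of the comparisons uses, and neighbouring entries may share a transcript.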

How the results depend on the processing

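With 3 libraries per type, few tags outside germ cells limit the comparisons. No called member changed sign in any alternative run. The counts of the germ contrast are a description, since its members were chosen by germ levels. Without a filter on low counts 33 members were called among the 7 types and 31 in the germ contrast (29 higher, 2 lower), since all 56 entered. Leaving out 1 library at a time gave 5 to 17 members among the 7 types, 5 to 16 in the germ contrast, 4 to 6 in PTM, Sertoli and Leydig against smooth muscle cells, 0 to 1 in PTM against Sertoli and Leydig cells, and 5 to 10 in PTM against smooth muscle cells. The low ends of the first 2 come from leaving out any germ library, which takes members below the count minimum, and with the same entries tested (an alternative chosen after seeing the data) they were 17 and 16. PTM against Sertoli and Leydig cells gave 1 call in place of 0 in several settings: miR-7218-5p higher with at least 30 counts (1), with the replicate block (1; adjusted p = 0.041, against 0.067 without it), without PTM replicate 3 or without ISMC replicate 2. It gave miR-7240-5p lower with only the libraries compared (1), with DESeq2 (1) and without ISMC replicate 1, and miR-7223-5p higher without Sertoli replicate 3. PTM against smooth muscle cells gave 3 with only the libraries compared, 5 with DESeq2 and 3 without germ libraries (chosen after seeing the data), where fewer members reach the minimum. Apart from miR-7218-5p in that comparison and the loss of miR-7231-5p above, the replicate block changed no call of a named member. Replicate numbers did not pair the libraries: the correlation of deviations ran from -0.263 to 0.313 over 63 same-numbered pairs.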
